A study of Mus musculus with 8 samples.

Results

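The genes described here are 35 genes of blood clotting: the coagulation factors, the contact system, fibrinogen, the inhibitors and the protein C pathway, the fibrinolytic proteins, 3 plasma modulators and the enzymes of the vitamin K cycle. They were chosen by name, with earlier results of these data known though by no threshold on the values, and each was read from the probe with the highest mean signal over the arrays. Of the 35 genes, 26 were measured, meaning that a probe annotated to the gene was detected (detection p of 0.05 or less) in at least 1 of the 8 arrays, and 24 of them were detected in all 8. They stand among 9640 named genes and 14850 features tested, the rest of which are probes with no single gene name in the annotation used. The other 9 genes (F3, F9, Vwf, Fga, Thbd, Plat, Plau, Cpb2 and Vtn) had no probe in that annotation and were not analysed here.

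Hepatocytes make and secrete most clotting proteins of the plasma. Factor X is activated by factor VIIa or factor IXa and then turns prothrombin into thrombin, which converts fibrinogen to fibrin. Serpins, the protein C pathway and TFPI hold this cascade in check, plasmin dissolves the clot, and several of the factors need a vitamin K-dependent carboxylation to bind membranes. GATA4 is a zinc finger transcription factor present in hepatocytes and in liver endothelium, and the factor X promoter was among the sites at which the study assayed its binding.

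Hepatocyte RNA came from Gata4 fl/fl mice of the CD1 x 129S1/SvImJ strain, aged 2 to 3 months, taken 2 weeks after an intravenous injection of AAV8-Tbg-Cre (AAV-Cre, n = 4) or AAV8-Tbg-GFP (AAV-GFP, n = 4). Both groups carried the floxed alleles and received a virus, and the Tbg promoter limits Cre to hepatocytes, so that other liver cells keep Gata4. RNA was hybridised to bead arrays (MouseWG-6 v2) with a single array for each sample, and values are log2 intensities after background correction and quantile normalization. The labels do not say that each array came from a separate animal, so p-values measure only the spread between these samples.

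The arrays held 14788 to 16387 detected probes, with the fewest in AAV-Cre replicates 3 and 4. The Gata4 probe used was near background in all 8 arrays (5.02 to 5.37 in AAV-GFP and 5.72 to 6.28 in AAV-Cre). It was detected only in AAV-Cre replicate 1 and does not check the deletion. Xist was high in AAV-GFP replicates 1 and 4 (13.33 and 13.78) and at 5.07 to 5.33 in the other 6 arrays, so the groups were not balanced for Xist. Hepatocyte markers were present, with 6 of 12 listed genes measured, among them Alb, Ahsg and Rbp4. Of the 6, 5 had a lower mean in AAV-Cre (median -0.22, none past the adjusted threshold). Ahsg (14.87 and 14.91) and Rbp4 (11.44 and 11.15) fell below the other arrays only in AAV-Cre replicates 3 and 4. Alb was lowest in AAV-Cre replicate 1 (9.10), and Tat was detected in only 1 array. Markers of other liver cells were present too. The summed intensity of 19 of 22 listed sinusoidal endothelial genes ran from 6860 to 14986 in AAV-GFP and from 9462 to 14142 in AAV-Cre. That of 12 of 16 Kupffer cell and macrophage genes ran from 1829 to 3267 in AAV-GFP and from 3126 to 4032 in AAV-Cre, with 11 of the 12 higher in AAV-Cre (median 0.49). A single gene was measured of the platelet list (P2ry12, 0.20) and of the cholangiocyte list (Sox9, 1.19 ± 0.29 SE), and 4 of 6 stellate cell genes were higher (median 0.11). None of these markers passed the adjusted threshold.

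Because GATA4 was the factor removed, the 250 bases before the start of each gene were read from the RefSeq promoter table (build GRCm38.p6), in which 27 of the 35 genes had an entry. They were searched on both strands for the hexamer AGATAA, for the hexamer AGATAG and for the forms of each that begin with T, which are TGATAA and, in the second case, TGATAG. All of them hold the core GATA. A hexamer lay in this window of 8 of the 27 genes (29.6%), F8, Fgb, Klkb1, Pros1, Serpind1, Serpinf2, Tfpi and Vkorc1, against 29.8% of 27025 genes in the table. The core alone lay in 17 of the 27 (63.0%), against 57.4% of all. The windows of 4 genes are printed, with hexamers in capitals. F10 is shown as the gene whose promoter the study examined, and F2 as the bright gene whose groups did not overlap. The F10 window holds none of the primer sequences that the study lists for the factor X promoter. It may therefore not be the region that the study assayed. F8 is shown for the highest difference among the 26 on the background-corrected values. Tfpi is shown for its pair of start sites, both of which hold 2 hexamers.
F10, chr8:13037058-13037307 (+ strand): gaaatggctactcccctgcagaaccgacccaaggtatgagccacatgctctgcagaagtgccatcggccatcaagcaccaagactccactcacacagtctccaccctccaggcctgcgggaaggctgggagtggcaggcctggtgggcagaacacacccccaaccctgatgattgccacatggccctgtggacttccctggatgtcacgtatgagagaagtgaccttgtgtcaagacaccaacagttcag
F2, chr2:91636458-91636707 (- strand): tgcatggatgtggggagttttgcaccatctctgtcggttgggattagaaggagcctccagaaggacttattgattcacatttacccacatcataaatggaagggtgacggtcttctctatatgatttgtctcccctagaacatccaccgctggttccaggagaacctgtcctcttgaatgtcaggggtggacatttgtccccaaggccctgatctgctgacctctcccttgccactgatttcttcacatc
F8, chrX:75380042-75380291 (- strand): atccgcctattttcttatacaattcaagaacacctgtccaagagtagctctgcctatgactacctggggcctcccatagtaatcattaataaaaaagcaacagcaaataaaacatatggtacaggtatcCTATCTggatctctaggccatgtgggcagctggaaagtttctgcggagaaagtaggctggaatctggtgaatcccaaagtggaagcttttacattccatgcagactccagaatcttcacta
Tfpi, first start site, chr2:84476760-84477009 (- strand): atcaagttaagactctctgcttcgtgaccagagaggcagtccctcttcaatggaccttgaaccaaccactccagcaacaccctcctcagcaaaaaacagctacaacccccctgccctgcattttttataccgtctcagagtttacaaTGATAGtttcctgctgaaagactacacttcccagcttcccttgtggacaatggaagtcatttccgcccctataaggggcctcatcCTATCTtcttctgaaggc
Tfpi, second start site, chr2:84474175-84474424 (- strand): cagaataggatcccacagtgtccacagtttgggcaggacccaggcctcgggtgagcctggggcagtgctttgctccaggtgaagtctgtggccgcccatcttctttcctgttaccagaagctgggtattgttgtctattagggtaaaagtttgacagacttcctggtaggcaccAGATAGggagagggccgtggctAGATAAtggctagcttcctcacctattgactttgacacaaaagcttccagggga
A match describes the letters only. The 8 genes with a hexamer had log2 differences between -0.23 (Tfpi) and 0.39 (F8).

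No clotting gene was called between AAV-Cre and AAV-GFP hepatocytes. In limma's fit over all 14850 features, 1 feature (0.00673%) had a Benjamini-Hochberg adjusted p under 0.25, and none of the 26 genes did. At an unadjusted p under 0.05 the fit held 1345 features (9.06%) and 1 of the 26 genes (3.85%), Serpina5. The 4 AAV-Cre values lay wholly above or wholly below the 4 AAV-GFP values for 714 features (4.81%). This also held for 2 of the 26 genes (7.69%), F2 and Serpina5, both with AAV-Cre lower. Serpina5 was detected in 2 AAV-GFP arrays only, so it entered the 26 through the group where it read higher. With detection required in all arrays of a group, Serpina5 dropped out. The counts were then 0 of 24 genes at an unadjusted p under 0.05 (10.5% of all features) and 1 not overlapping (5.45%). Without AAV-GFP replicate 1 the count at an unadjusted p under 0.05 was 0 of 26, against 7.85% of all features in that fit. It was 2 without AAV-Cre replicate 1 (Serpina5 and Apoh), against 15% of all features, and 3 without AAV-Cre replicate 2 (Serpina5, Apoh and Hrg), against 13.4%. It was also 3 without AAV-GFP replicate 4 (Serpina5, F8 and Ggcx), against 6.89%.

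As many clotting genes were higher (13) as lower (13) in AAV-Cre. The median difference was -0.00010 on the log2 scale and the range -1.25 to 0.39, with Serpina5, Apoh and Hrg farther below 0 than any gene lay above it, while the median over all features was 0.042. The median standard error was 0.16 over the 26 genes and 0.20 over all features. For 16 of the 26 genes (61.5%) the 95% interval of the difference lay within 0.5 on either side of 0, which held for 24.9% of all features. The SD among replicates had a median of 0.15 in AAV-GFP, against 0.18 in AAV-Cre, and was larger in AAV-Cre for 17 of the 26 genes. The same share over all features was not computed, so this count is not read as a trait of the clotting genes.

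**Figure D1:**
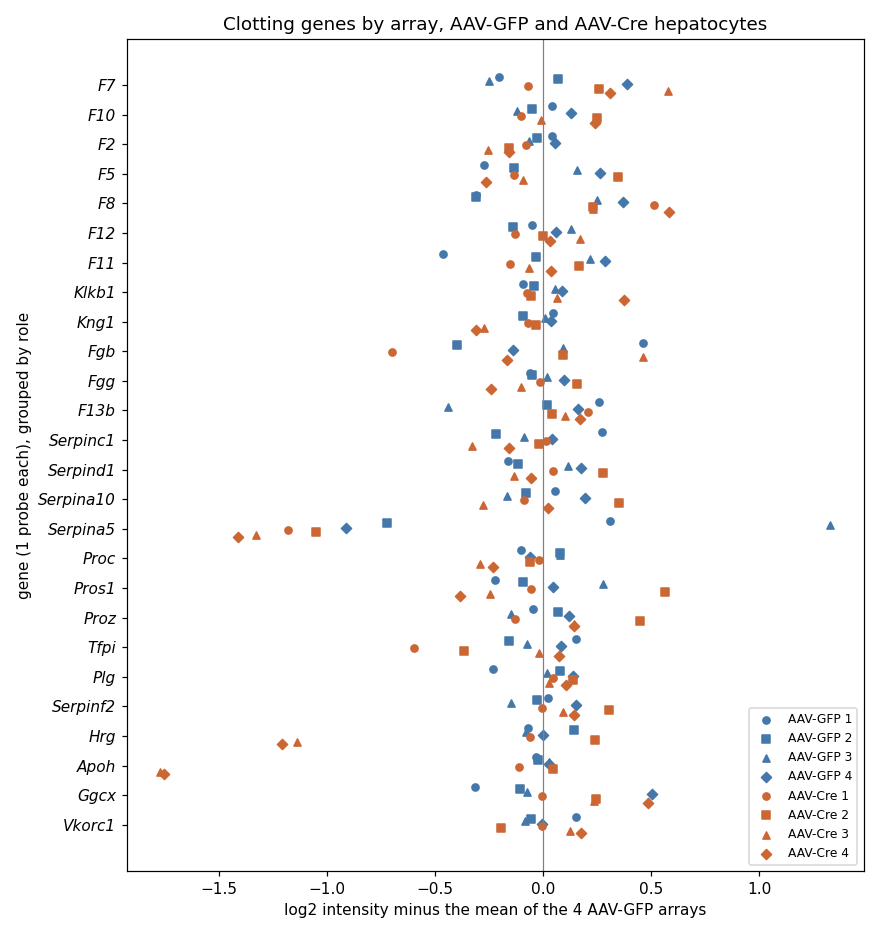
Each point is 1 array's log2 intensity of a gene minus the mean of the 4 AAV-GFP arrays, for the 26 measured clotting genes in the order of their roles. Most points of both groups lie on the same narrow band around 0, AAV-Cre replicates 3 and 4 lie more than 1 log2 unit low at Apoh and Hrg, and Serpina5 spreads from 5.76 to 8.00 in AAV-GFP.

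Factor X, prothrombin and factor VII make up the measured part of the initiation and thrombin-generating steps. F10, which encodes factor X, read 15.29, 15.20, 15.13 and 15.38 in AAV-GFP, given here and for other genes in the order of the replicate numbers, and 15.15, 15.50, 15.24 and 15.49 in AAV-Cre. The groups overlapped, with AAV-Cre replicate 1 near the low end of the AAV-GFP range and AAV-Cre replicates 2 and 4 above it. The difference was 0.095 ± 0.13 (SE), a ratio of 1.07 with a 95% interval of 0.865 to 1.32 (adjusted p = 0.813, limma).

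F2, which encodes prothrombin, read 14.84, 14.77, 14.73 and 14.85 in AAV-GFP and 14.72, 14.64, 14.54 and 14.64 in AAV-Cre. Every AAV-Cre array lay below every AAV-GFP array, although AAV-GFP replicate 3 and AAV-Cre replicate 1, at 14.73 and 14.72, nearly touched. The difference was -0.16 ± 0.11 (SE), with a ratio of 0.893 and a 95% interval of 0.751 to 1.06 (adjusted p = 0.595, limma). The separation was lost when arrays were scaled to their 75th percentile in place of quantiles. F7, the gene of factor VII, which starts the cascade together with tissue factor, differed by 0.27 ± 0.19 (SE), and its groups overlapped with AAV-Cre replicate 3 the highest array at 12.54.

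The cofactors were F5 and F8. Factor V, the cofactor of factor Xa, differed by -0.036 ± 0.18 (SE) at the F5 probe used and by 0.066 ± 0.17 (SE) at the other one. F8, the cofactor of factor IXa, comes in the liver from sinusoidal endothelial cells rather than from hepatocytes. It read 7.77, 7.77, 8.33 and 8.45 in AAV-GFP and 8.59, 8.31, 8.31 and 8.66 in AAV-Cre. The lower pair of AAV-GFP arrays, replicates 1 and 2, lay under every other array, and AAV-GFP replicates 3 and 4 lay inside the AAV-Cre range. The difference, 0.39 ± 0.20 (SE), was the highest of the 26 genes on the background-corrected values and did not pass the test (adjusted p = 0.535, limma). Without background correction it was 0.20, under F7 (0.25) and Ggcx (0.22). The other F8 probes differed by 0.23 and -0.14.

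Beside F8, 18 of the 19 measured sinusoidal endothelial markers had a higher mean in AAV-Cre, with a median difference of 0.44, and none passed the adjusted threshold. Stab2, a scavenger receptor of these cells, differed by 1.03 ± 0.35 (SE). The median deviation of the endothelial markers was positive in AAV-GFP replicate 4 and AAV-Cre replicates 1, 3 and 4 and negative in the other 4 arrays. Tfpi, a further gene with endothelial expression and the inhibitor of the factor VIIa and tissue factor complex, went the other way, at -0.23 ± 0.18 (SE). It read 9.70, 9.39, 9.47 and 9.63 in AAV-GFP and 8.95, 9.18, 9.53 and 9.62 in AAV-Cre, so that only AAV-Cre replicates 1 and 2 lay under the AAV-GFP arrays. The part of endothelial RNA in the F8 and Tfpi values was not tested, and in RNA of many cells fewer cells of a type and less RNA per cell cannot be told apart.

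The contact system starts clotting on charged surfaces, and none of its 4 genes passed the test. F12 differed by 0.015 ± 0.12 (SE), F11 by -0.0042 ± 0.18 (SE), and Klkb1, the gene of plasma prekallikrein, by 0.079 ± 0.14 (SE). Kng1, which encodes kininogen, the source of bradykinin, differed by -0.17 ± 0.12 (SE). It read 15.91, 15.77, 15.87 and 15.90 in AAV-GFP and 15.79, 15.83, 15.59 and 15.55 in AAV-Cre, with AAV-Cre replicates 3 and 4 the lowest arrays. This probe reached 93.9% of the highest intensity on its array, near the top of the scale. A second Kng1 probe differed by -0.82 ± 0.41 (SE), and its lowest array was AAV-Cre replicate 1. That probe was dim, with a mean of 7.81 in AAV-GFP against 15.86 for the probe used, and was detected in only 3 AAV-Cre arrays.

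Among the genes of fibrin and its crosslinking, Fgg, the fibrinogen gamma chain, differed by -0.049 ± 0.13 (SE). F13b, the carrier subunit of factor XIII, differed by 0.13 ± 0.17 (SE). The Fgb probe, for the fibrinogen beta chain, was detected in 3 AAV-GFP and 2 AAV-Cre arrays and ranged from 5.76 to 6.92, so it stayed near background. Its 95% interval, -0.70 to 0.54, was among the widest of the 26 genes. Fibrinogen, an acute phase protein, is therefore described here by Fgg. In the list of other acute phase genes, 9 of 17 measured genes were higher and 8 lower, with a median of 0.020, and none passed the test. The median deviation of this list was highest in replicate 2 of each group, at 0.20 in AAV-GFP and 0.58 in AAV-Cre.

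Among the inhibitors, Serpina5 had the lowest difference, from a probe near background. It encodes the protein C inhibitor, which is expressed in mouse mainly in the reproductive tract. It read 6.98, 5.95, 8.00 and 5.76 in AAV-GFP and 5.49, 5.62, 5.34 and 5.26 in AAV-Cre. The probe was detected in 2 AAV-GFP arrays and in no AAV-Cre array, and AAV-GFP replicates 2 and 4, at 5.95 and 5.76, lay just above the highest AAV-Cre array at 5.62. The fitted difference was -1.25 ± 0.45 (SE) with an adjusted p of 0.535 in limma. No fold is given, since the probe was undetected in 6 of the 8 arrays and the difference depended on the background correction. Without background correction it was -0.39, where Apoh (-0.86) and Hrg (-0.49) were lower, and without AAV-GFP replicate 3 it was -0.80.

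None of the other inhibitors passed the test. Serpinc1, which encodes antithrombin, the main inhibitor of thrombin and factor Xa, read 12.58, 12.09, 12.22 and 12.35 in AAV-GFP and 12.32, 12.29, 11.98 and 12.15 in AAV-Cre. The groups overlapped over most of their range, and the difference was -0.12 ± 0.15 (SE). Serpind1, the gene of heparin cofactor II, differed by 0.031 ± 0.14 (SE), and Serpina10, whose product inhibits factor Xa with protein Z, by 0.0040 ± 0.16 (SE). Proz, the gene of protein Z itself, differed by 0.15 ± 0.15 (SE). In the protein C pathway, which inactivates factors Va and VIIIa, Proc differed by -0.15 ± 0.12 (SE), with its second probe at 0.23 ± 0.15 (SE), and its cofactor gene Pros1 by -0.031 ± 0.22 (SE). Pros1 varied most in AAV-Cre, from 12.22 in replicate 4 to 13.17 in replicate 2.

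In fibrinolysis, Plg, the gene of plasminogen, read 15.68, 15.99, 15.93 and 16.05 in AAV-GFP and 15.96, 16.05, 15.94 and 16.02 in AAV-Cre. The AAV-Cre arrays lay between 15.94 and 16.05, in the upper part of the AAV-GFP range, and the difference was 0.078 ± 0.12 (SE). Serpinf2, which encodes the plasmin inhibitor alpha 2-antiplasmin, differed by 0.13 ± 0.13 (SE). The probes of Plg and Serpinf2 reached 96.7% and 94.8% of the highest intensity on an array, near the top of the scale. The other Serpinf2 probes differed by 0.25 and 0.23.

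The vitamin K cycle was represented by Ggcx, the carboxylase, and Vkorc1, the reductase that warfarin blocks. Ggcx differed by 0.24 ± 0.20 (SE) and Vkorc1 by 0.022 ± 0.13 (SE). The other Ggcx probes differed by 0.36, 0.39 and -0.16, and the other Vkorc1 probes by -0.15 and -0.057. The measured clients of the vitamin K-dependent carboxylation, F2, F7, F10, Proc, Pros1 and Proz, had differences from -0.16 to 0.27. Of 6 measured genes of a further list for this cycle and for secretion, 4 were higher and 2 lower, with a median of 0.14. Farthest from 0 was Lman1, a cargo receptor for factors V and VIII, at -0.40 ± 0.23 (SE). Lman1 read 12.10 and 11.87 in AAV-Cre replicates 3 and 4, against 12.52 to 13.01 in the other arrays. None of the 6 passed the test.

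**Figure D2:**
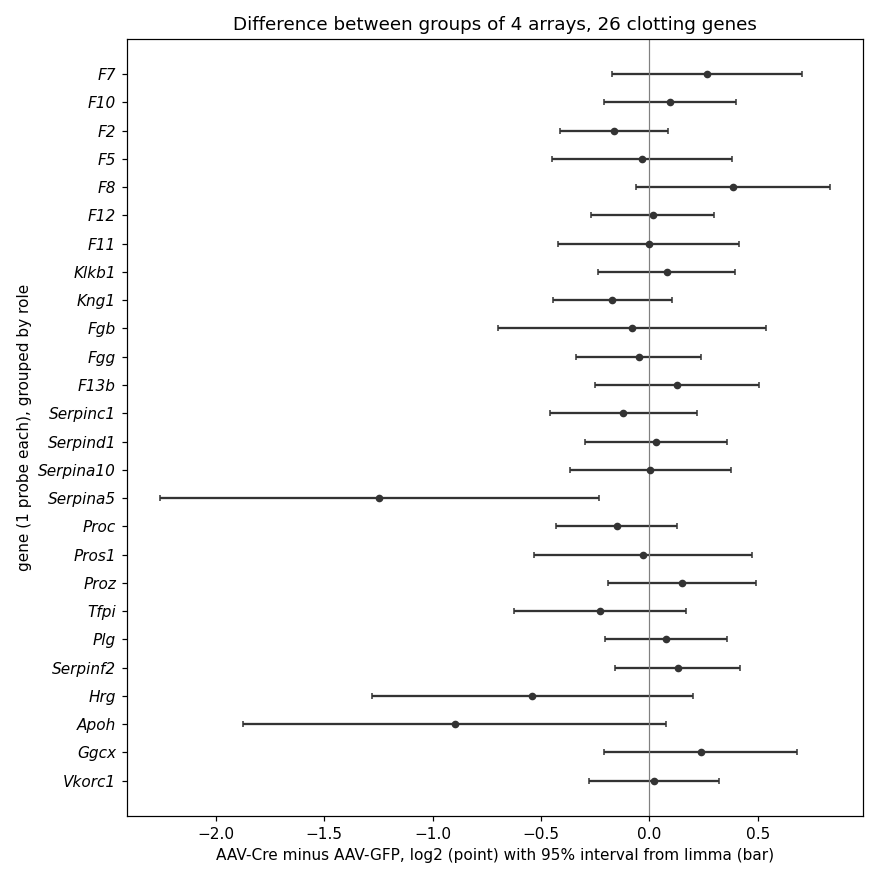
Points are the AAV-Cre minus AAV-GFP differences of the 26 genes on the log2 scale, and bars are 95% intervals from limma (n = 4 arrays per group). The interval of Serpina5 lies wholly below 0 before adjustment, all other intervals cross 0, and the intervals of Serpina5, Apoh and Hrg are the widest.

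The plasma modulators Apoh and Hrg were lower in AAV-Cre on average through 2 arrays. Apoh encodes beta 2-glycoprotein I, a phospholipid-binding protein known as the target of antiphospholipid antibodies. It read 13.50, 13.51, 13.56 and 13.56 in AAV-GFP and 13.42, 13.58, 11.76 and 11.78 in AAV-Cre. AAV-Cre replicates 1 and 2 lay beside the AAV-GFP arrays, and AAV-Cre replicates 3 and 4 lay far below all of them. The difference was -0.90 ± 0.43 (SE; adjusted p = 0.535, limma) with all arrays and -0.031 with AAV-Cre replicates 3 and 4 left out. Hrg, which encodes histidine-rich glycoprotein, a ligand of heparin and plasminogen, had the same shape. It read 11.93, 12.14, 11.92 and 12 in AAV-GFP and 11.94, 12.24, 10.86 and 10.79 in AAV-Cre. Its difference of -0.54 ± 0.33 (SE) became 0.092 with these 2 arrays left out.

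At several genes, probes of the same gene did not move together in these 2 arrays. A second Hrg probe read 11.15 and 10.79 in AAV-Cre replicates 3 and 4, against 10.42 to 10.86 in AAV-GFP. It read 10.39 and 11.32 in AAV-Cre replicates 1 and 2, and differed by 0.26 between the groups. Apoh had a single probe in the annotation used, so no such comparison could be made for it. The probe used for Plg showed no drop, while a second Plg probe read 12.06, 12.32, 12.24 and 12.32 in AAV-GFP and 12.02, 12.47, 11.01 and 10.86 in AAV-Cre. Another Plg probe was higher than AAV-GFP in these same arrays, at 14.00 and 13.77 against 13.14 to 13.53. It was also high in AAV-Cre replicate 2 (14.08) but not in AAV-Cre replicate 1 (13.18).

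The same split was present at further genes. A second Proz probe read 9.65 and 9.74 in AAV-Cre replicates 3 and 4 against 10.61 to 11.35 in the other 6 arrays, and the Proz probe used read 13.25 in both. A second F13b probe read 13.74 and 13.80 in these arrays against 14.32 to 14.85 in the other 6, and the F13b probe used read 14.68 and 14.75. An F11 probe other than the one used read 8.62 and 8.52 against 9.19 to 10.18 in the other 6, and the one used read 14.39 and 14.49. For each of these genes the level in AAV-Cre replicates 3 and 4 therefore depended on which probe was read.

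**Figure D3:**
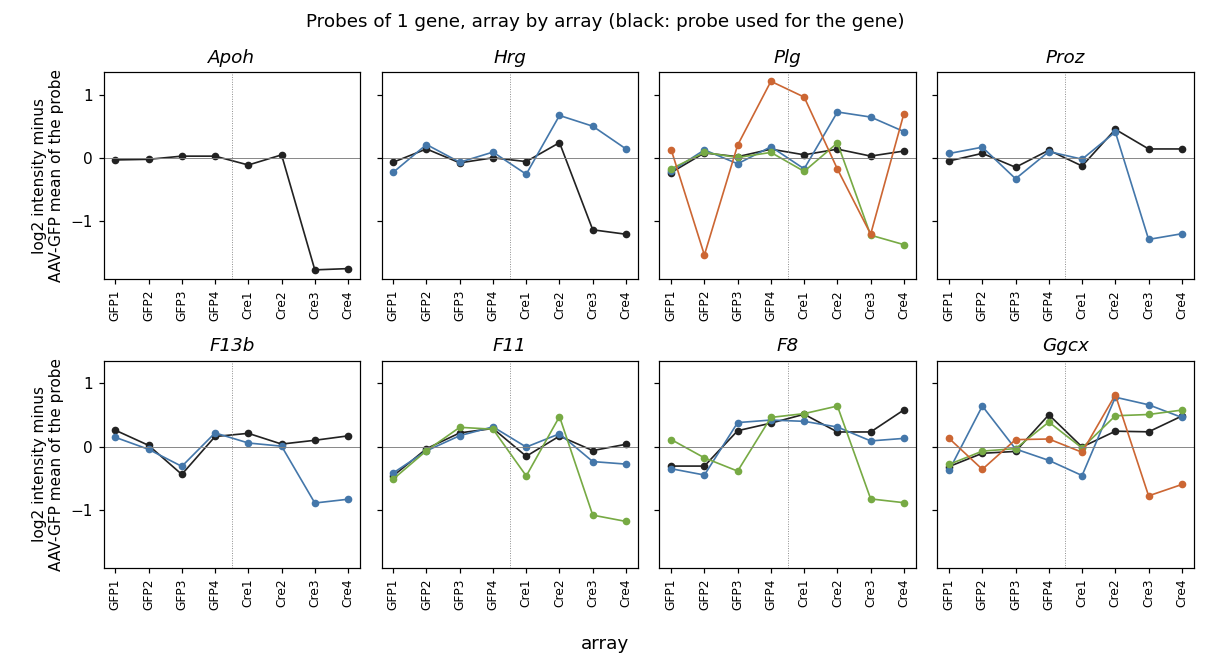
Lines join the log2 intensities of 1 probe over the 8 arrays, each minus the probe's own AAV-GFP mean, for 8 genes, with the probe used for the gene in black and probes detected in at least 6 arrays shown. At 1 probe of each gene AAV-Cre replicates 3 and 4 drop below the other arrays, as Apoh does to 11.76 and 11.78, while other probes of Proz, F13b, F11 and Plg show no such drop.

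Of the 44 probes of these genes detected in all 8 arrays, 11 (25.0%) had both AAV-Cre replicates 3 and 4 below the other 6 arrays, against 1629 of all 12779 such probes (12.7%). Only 1 of the 44 (2.27%) had both above, against 2860 of 12779 (22.4%). Of the 13 clotting genes with 2 or more such probes, 7 (53.8%) had at least 1 probe below the other arrays and at least 1 that was not, against 511 of 2312 genes (22.1%). By another measure, the mean of AAV-Cre replicates 3 and 4 minus that of AAV-Cre replicates 1 and 2 was taken for each probe. It differed by over 0.5 between probes of 6 of the 13 genes (46.2%), against 780 of 2312 genes (33.7%). These shares describe 2 arrays of 1 group, chosen after the Apoh and Hrg values were seen. The probes used for Apoh and Hrg are themselves among the 11, and probes of the same gene count separately there. The same 2 arrays had the fewest detected probes (14788 and 15067, against 15406 to 16387), and the part of this in the low values was not tested. The labels give an RNA integrity number above 7.5 for all samples.

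With AAV-Cre replicates 3 and 4 left out, the median difference of the 26 genes was 0.073, and 8 genes changed sign, among them Hrg, F5 (0.10) and Pros1 (0.26). Tfpi stood at -0.48 in that fit, with an adjusted p of 1.00 in limma. With AAV-GFP replicates 1 and 4, the arrays with high Xist, left out, the median was 0.032 and 6 of the 26 genes did not overlap between the groups, against 16.1% of all features in that fit. F10 kept its sign in both fits, at 0.075 and 0.18.

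**Figure D4:**
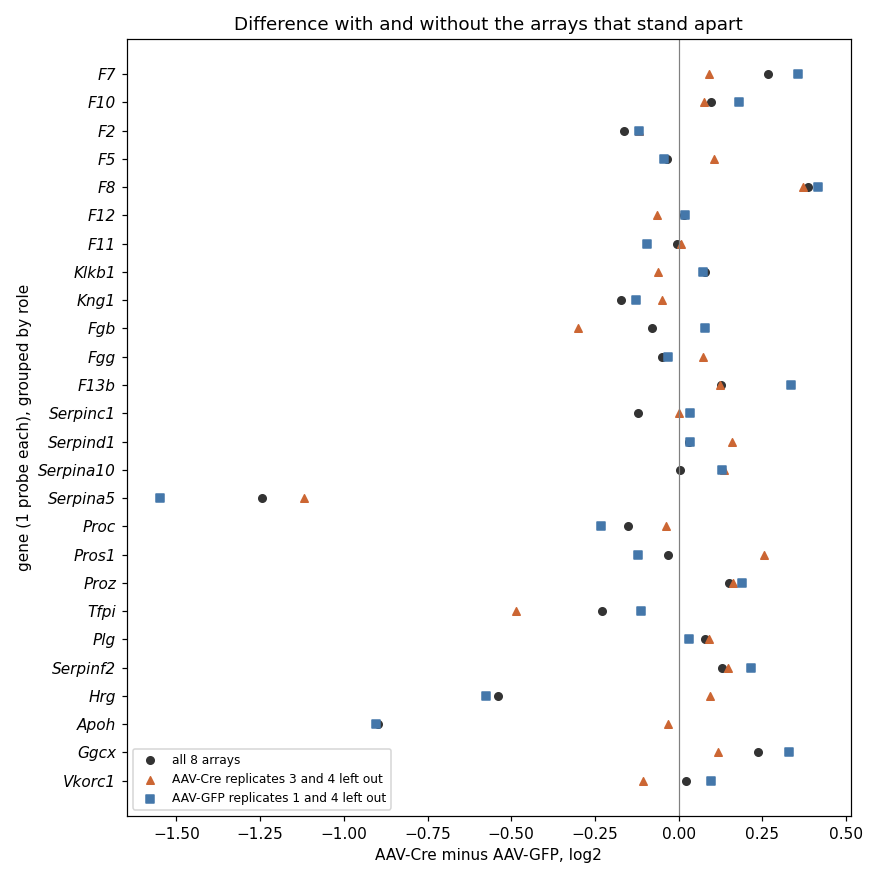
Points are the AAV-Cre minus AAV-GFP differences of each gene on the log2 scale with all 8 arrays, with AAV-Cre replicates 3 and 4 left out and with AAV-GFP replicates 1 and 4 left out. Apoh moves from -0.90 to -0.031 and Hrg from -0.54 to 0.092 without the AAV-Cre pair, and the difference of F10 stays between 0.075 and 0.18.

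Several of the genes are neighbours in the genome. F7, F10 and Proz follow each other on chromosome 8 with no protein-coding gene between them in the RefSeq order, and differed by 0.27, 0.095 and 0.15. F11 and Klkb1, a pair of the same chromosome that encodes related proteases, differed by -0.0042 and 0.079. Fgg and Fgb flank Fga on chromosome 3, and Hrg and Kng1 lie on chromosome 16 with 1 gene between them. The probes used for Hrg and Kng1 both had their lowest values in AAV-Cre replicates 3 and 4. The second probes of both genes were lowest in AAV-Cre replicate 1 instead, at 10.39 and, for the dim Kng1 probe, 6.09.

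Of 31 other genes of clotting and fibrinolysis, 19 were measured, 8 higher and 11 lower in AAV-Cre, with a median difference of -0.057. None passed the adjusted threshold. F2r, the thrombin receptor PAR1 on endothelial and stellate cells, averaged 10.43 in AAV-GFP hepatocytes against 11.68 in AAV-Cre and did not overlap between the groups. Its difference was 1.24 ± 0.26 (SE; adjusted p = 0.535, limma). The other 3 genes with the smallest p were Anxa2, Fgl1 and Lrp1. Anxa2, a plasminogen receptor, differed by 0.78 ± 0.36 (SE). Fgl1, a fibrinogen-like liver protein, differed by -1.08 ± 0.61 (SE), and Lrp1, a clearance receptor for protease and inhibitor complexes, by -0.63 ± 0.36 (SE). In AAV-Cre replicates 3 and 4 Lrp1 read 7.81 and 7.99, against 8.81 to 9.54 in the other arrays. Fgl1 read 13.20 and 13.35 there, against 14.11 to 15.87 in the other arrays.

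Transcription factors that act on clotting genes in liver were measured for 12 of 14 listed genes, with 6 higher, 6 lower and a median of -0.0094. Foxa2 was lower in every AAV-Cre array, at -0.77 ± 0.25 (SE), and Foxa1 differed by 0.71 ± 0.28 (SE). Esr1, the estrogen receptor alpha gene, differed by -2.02 ± 0.93 (SE) and read 5.40 and 5.55 in AAV-Cre replicates 3 and 4, where it was undetected, against 7.77 to 9.86 in the other 6 arrays. Hnf4a, which drives many clotting genes in hepatocytes and was named for that role after its values were seen, differed by -0.067 ± 0.15 (SE). None of the 12 passed the adjusted threshold.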

How the data were processed

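RNA from hepatocytes of 4 AAV-GFP and 4 AAV-Cre samples was read on MouseWG-6 v2 bead arrays. The authors exported a linear intensity and a detection p-value for each of 45281 probes with GenomeStudio, whose version is not given in the labels or methods. They also deposited a value table of 16820 probes with quantile-normalized intensity, used here as an alternative. Here the deposited intensity values were background-corrected (normexp fitted through the detection p-values), offset by 16, quantile-normalized and log2-transformed by neqc of limma 3.58.1 in R 4.3.3. Probes detected in at least 1 array (19618) were kept, and the probe with the highest mean stood for a gene, giving 14850 features. Probes were named through an annotation that covers only the 16820 probes of the authors' value table, so a gene without a name there is not described. A linear model with empirical Bayes moderation compared the groups, with Benjamini-Hochberg adjustment over all features and a threshold of 0.25, one of those in the study's methods. The study's SAM test was not run, because it rests on other splits of the labels. The script was tested on simulated data with known changes.

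Bead arrays give no read depth, and the number of arrays (4 per group) limits the precision. All 26 measured clotting genes are named. From each other list, up to 4 genes with the smallest p could be named, and Hnf4a was named outside this rule. The members and lists were chosen with earlier results of these data known. Alternatives changed the probe choice, detection filter, background correction, normalization, array weights, replicate block, threshold, the arrays used and the table the values came from; the fit with all detected probes as features was added after seeing the data. Fits without some arrays kept the normalization and the chosen probes. Promoter windows came from RefSeq (GRCm38.p6), and figures were drawn with matplotlib 3.10.9.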

Additional observations from a re-analysis of the deposited data

Results flagged for a closer look

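Over the 98 groups of 4 arrays given by the 49 detected probes of the clotting genes, 5 single arrays lay far from the others of their group. Chance flags about 1 in 20 such groups. None of the 5 was at a probe used for its gene. AAV-GFP replicate 1 was low at an F12 probe (9.98, the others 10.21 to 10.25) and high at a Vkorc1 probe (14.24, the others 13.86 to 13.88). AAV-Cre replicate 1 was low at a Ggcx probe (9.63, the others 10.14 to 10.23) and high at another Vkorc1 probe (14.86, the others 14.62 to 14.66). AAV-GFP replicate 2 was low at another Ggcx probe (8.47, the others 8.94 to 8.96). The low pair AAV-Cre replicates 3 and 4 at Apoh and Hrg met no such rule, since it takes 1 array at a time.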

How the results depend on the processing

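Of 492 values of single clotting genes under the alternatives, 438 kept their sign and their side of the threshold, 54 changed sign and none passed the adjusted threshold (lowest adjusted p 0.315, Apoh). Apoh, F10, F2, F7, F8, Ggcx, Kng1, Serpina5, Serpinf2 and Tfpi never changed sign. The count of calls over all features was 2 without background correction, with 75th percentile scaling, with cyclic loess, with detection in all arrays of a group and with array weights, 3 on the authors' value table, and 1 to 5 with 1 array left out (AAV-GFP replicate 2 for the 5, and 3 with AAV-Cre replicate 1 out). Clotting genes at an unadjusted p under 0.05 numbered 2 without background correction, with 75th percentile scaling and with array weights (9.24%, 10.1% and 11.6% of all features), 0 of 24 with detection in all arrays of a group (10.5%), and 0 to 3 with 1 array left out (5.14% to 15%). Those with groups that did not overlap numbered 0 with 75th percentile scaling (4.28% of all features), 1 with detection in all arrays of a group (5.45%) and 6 without AAV-GFP replicates 1 and 4 (16.1%). Whether replicate numbers pair the samples was not settled here. Same-number correlations were low (0.024 to 0.19), but 6 of 8 arrays correlated best with their own number. The main fit took the samples as unpaired. The fit with the replicate block gave 1 call and 1 clotting gene at an unadjusted p under 0.05.

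Signs changed with AAV-Cre replicates 3 and 4 left out for F11 (0.0067), Klkb1 (-0.063), Fgg (0.072), Hrg (0.092), Vkorc1 (-0.11), F5 (0.10), Pros1 (0.26) and F12 (-0.066). They changed with AAV-GFP replicates 1 and 4 left out for Serpinc1 (0.034) and Fgb (0.077), and with array weights for Fgb (0.0072). Cyclic loess turned Serpina10 (-0.066), Vkorc1 (-0.012), Serpind1 (-0.035) and F12 (-0.026). The mean of all detected probes turned Proz (-0.19), F13b (-0.15), Proc (0.041), Vkorc1 (-0.063), F5 (0.015) and Plg (-0.025). Scaling to the 75th percentile turned F11 (0.056), Fgg (0.030), F5 (0.024), Pros1 (0.029) and Fgb (0.00094). With 1 array left out, the ranges that crossed 0 were F11 -0.16 to 0.091, F12 -0.035 to 0.062, F13b -0.020 to 0.21, F5 -0.16 to 0.052, Fgb -0.26 to 0.13, Fgg -0.12 to 0.014, Klkb1 -0.020 to 0.13, Pros1 -0.23 to 0.089, Serpina10 -0.11 to 0.096, Serpind1 -0.049 to 0.087 and Vkorc1 -0.029 to 0.095. The cause of these changes was not tested.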
